A study of Saccharomyces cerevisiae with 6 samples.

Results

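Ergosterol is the main sterol of the budding yeast Saccharomyces cerevisiae, where it fills the place that cholesterol has in animal membranes. It is made from acetyl-CoA through the mevalonate steps to farnesyl diphosphate, then through squalene and lanosterol by the enzymes of the late pathway. Surplus sterol is stored as steryl esters, and lipid transfer proteins carry sterol between membranes. Several late enzymes are targets of antifungal drugs, azoles acting on Erg11 and allylamines such as terbinafine on Erg1. Pdr1 and Pdr3 are zinc-cluster transcription factors that activate the pleiotropic drug resistance genes, many of which encode drug exporters.

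The genes described here are 36 genes of ergosterol synthesis and sterol handling, of 6002 protein-coding genes on the nuclear chromosomes in the R64 gene table. They were taken from a fixed list of names, and all 36 were found by symbol. By role, 9 belong to the mevalonate steps and 16 to the late pathway, 5 form or hydrolyse steryl esters, and 6 transport sterol or belong to the family of sterol carriers. The question asked of each gene was whether a Pdr1 or Pdr3 peak had its summit within 1000 bp upstream of the annotated start.

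Binding was profiled by CUT&RUN, in which an antibody on permeabilised nuclei directs a nuclease to cut out the DNA beside the bound protein. Yeast was grown in YPD, a rich medium, at 30 °C. Pdr1 was profiled with the c-Myc antibody in 2 libraries of the strain YRP10 (replicates 1 and 2), and Pdr3 in 1 library of the strain Pdr3_3xmyc. The sources used here do not give the tag carried by YRP10, the genetic background of the strains or whether the replicates came from separate cultures, and the labels name the c-Myc antibody under different catalogue numbers. Each library was paired with rabbit IgG nuclei, whose 3 libraries are not analysed here, so no control value stands beside the peaks. The peak lists held 792 peaks for Pdr1 replicate 1, 485 for replicate 2 and 7 for Pdr3, and they carry no read counts, so depth is unknown. Fold enrichment and its rank are the authors' values and are compared within a list.

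A Pdr1 summit lay upstream of 13 of the 36 sterol genes in replicate 1 (36.1%, 95% Wilson interval 22.5 to 52.4%), where 15.5% of all genes had one. In replicate 2 it lay upstream of 9 (25.0%, 13.8 to 41.1%), against 10.2% of all genes. In both replicates it lay upstream of 8 sterol genes (22.2%, 11.7 to 38.1%), against 8.95% of all genes. These 8 were IDI1, ERG11, ERG25, ERG28, ERG6, ERG5, ERG4 and KES1. ERG1, NCP1, ERG27, ARE2 and OSH2 had a summit in replicate 1 alone (13.9%, against 6.56% of all genes). YEH1 had one in replicate 2 alone (2.78%, against 1.27%). In either list a summit lay upstream of 14 sterol genes (38.9%, against 16.8%), which left 22 with none. The list was drawn up with earlier results of these data known and genes are not replicates, so these shares were set beside those of all genes and not tested. When replicate 1 was limited to its strongest peaks by fold enrichment, in the number of the replicate 2 list, 3 sterol genes remained in both lists (8.33%, against 6.06% of all genes). With the strongest peaks taken by −log10 q instead, 5 remained (13.9%, against 7.21%).

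No Pdr3 summit lay upstream of any of the 36 genes (0%, 95% Wilson interval 0 to 9.64%), where 0.167% of all genes, 10 in number, had one. With 7 Pdr3 peaks in a single library, a count of 0 in 36 genes cannot be told apart from the share of all genes. The closest Pdr3 summit before a sterol gene was 41204 bp from the start of YEH1.

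The genes were then counted by role, beside shares over all genes of 15.5% in replicate 1, 10.2% in replicate 2 and 8.95% in both. In the late pathway 9 of 16 genes had a summit in replicate 1 (56.2%, 95% Wilson interval 33.2 to 76.9%) and 6 of 16 in replicate 2 and in both (37.5%, 18.5 to 61.4%). Among the 9 are ERG27 and ERG6, whose summits lie beyond another gene. With windows ended at the neighbouring gene, 5 late genes remained in both (31.2%, against 7.56% of all genes), without ERG6. The same 5 remained with the nearest start only (31.2%, against 5.76%). With equal numbers of peaks by fold enrichment, the late count in both lists fell to 1, which at 6.25% is about the 6.06% of all genes, and by −log10 q it was 3 (18.8%, against 7.21%). In the mevalonate steps 1 of 9 genes had a summit in each list and in both (11.1%, 1.99 to 43.5%), a share near that of all genes. Among the 5 steryl ester genes each replicate had 1, a different gene in each, and of the 6 transport genes 2 had a summit in replicate 1 and 1 in both. The intervals of all 4 roles overlapped, and the difference between roles was not tested.

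**Figure D1:**
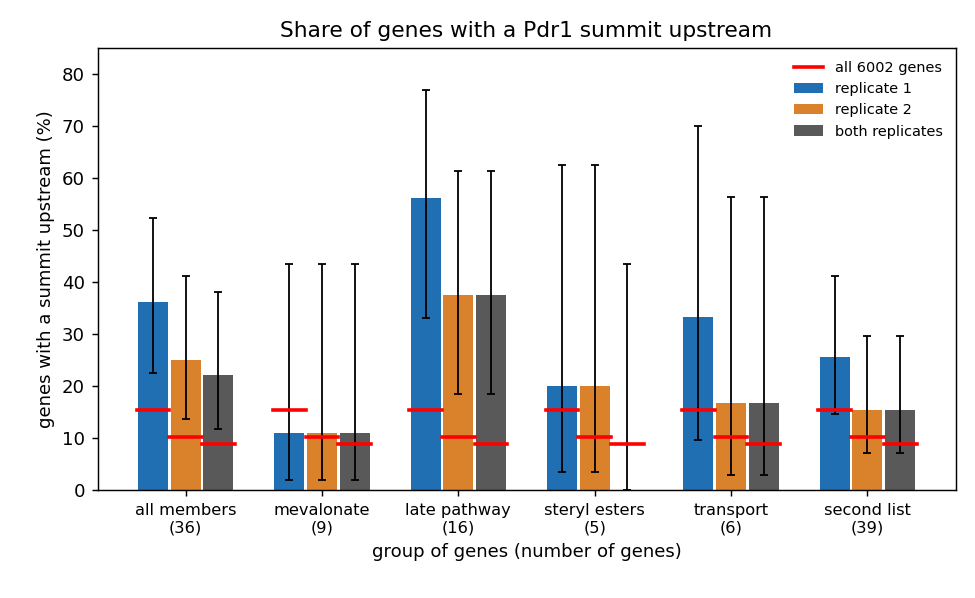
Share of genes with a Pdr1 summit within 1000 bp upstream, in percent, for all 36 sterol genes, each role and a second list of 39 sterol-related genes. Bars are replicate 1, replicate 2 and both, error bars are 95% Wilson intervals, and red lines are the shares over all 6002 genes. The late pathway stands at 56.2, 37.5 and 37.5%, above the red lines at 15.5, 10.2 and 8.95%, and the mevalonate bars stand at 11.1%.

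In the mevalonate branch, which builds the isoprenoid units, the gene with a peak was IDI1 (YPL117C), whose isomerase interconverts isopentenyl and dimethylallyl diphosphate. Its replicate 1 peak, on chromosome XVI from 328953 to 329173, was 6.92-fold enriched (rank 169 of 792) with its summit 322 bp before the start. In replicate 2 the peak from 329028 to 329242 was 3.75-fold enriched (rank 390 of 485), with the summit at 365 bp. The gene therefore stood in the upper part of the first list and the lower part of the second. The same space serves the divergent gene HOS3, which encodes a histone deacetylase, and both summits lay nearer to IDI1. None of the other 8 genes had a summit in the window. They were ERG10 (acetoacetyl-CoA thiolase), ERG13 (HMG-CoA synthase), the HMG-CoA reductase genes HMG1 and HMG2, ERG12 and ERG8 (mevalonate and phosphomevalonate kinase), MVD1 (mevalonate diphosphate decarboxylase) and ERG20 (farnesyl diphosphate synthase). HMG1 and HMG2, the genes of the committed and regulated step, had their nearest upstream Pdr1 summits at 5459 and 4018 bp.

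ERG5 had the strongest sterol peak of both lists. ERG5 (YMR015C) encodes the sterol desaturase of the late pathway, a cytochrome P450. On chromosome XIII, the replicate 1 peak from 302669 to 303116 was 13.0-fold enriched (rank 24 of 792, −log10 q 104). The replicate 2 peak from 302716 to 303070 was 8.44-fold enriched (rank 32 of 485, −log10 q 38.6). Both peaks lie in the top 10% of their list. The summits were 543 and 452 bp before the start, in a space of 750 bp that ends at SOK2, a regulator of filamentous growth transcribed in the same direction, and no other gene had these summits in its window. For scale, the known target PDR5, the gene of the main drug exporter, had 12.8-fold (rank 26) and 23.1-fold (rank 3), so that ERG5 was level with it in the first list and below it in the second. PDR16, a phosphatidylinositol transfer protein gene, had 37.5-fold (rank 1) and 25.0-fold (rank 2).

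ERG11 and ERG25 had broad peaks far from their starts. ERG11 (YHR007C) encodes the lanosterol demethylase that azoles inhibit. Its peaks on chromosome VIII ran from 122056 to 122756 in replicate 1 (3.79-fold, rank 601) and from 122144 to 122598 in replicate 2 (6.04-fold, rank 109). The summits were 687 and 741 bp before the start, closer to the neighbouring gene YHR007C-A than to ERG11, though that gene is transcribed in the same direction and has its own start on the far side. ERG25 (YGR060W) encodes the sterol methyl oxidase that begins removal of the methyl groups left after Erg11. Its peaks on chromosome VII ran from 609638 to 610216 (4.36-fold, rank 497) and from 609799 to 610084 (5.51-fold, rank 157), with summits 764 and 641 bp before the start. Both genes thus ranked higher in replicate 2 than in replicate 1, opposite to IDI1, and a window of 500 bp would have missed them in both lists.

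ERG28, ERG6 and ERG4 had peaks in both lists in the lower part of the ranking by fold enrichment. ERG28 (YER044C), whose product holds the demethylation enzymes together, had a replicate 1 peak of 3.86-fold (rank 588) and a replicate 2 peak of 3.63-fold (rank 400), on chromosome V from 238186 to 238413 and from 238209 to 238311. The summits were 208 and 280 bp before its start and lay in the window of no other gene. ERG6 (YML008C), the sterol methyltransferase gene, had peaks of 4.10-fold (rank 536) and 2.78-fold (rank 470), with summits 388 and 433 bp before the start. They ran on chromosome XIII from 253248 to 253412 and from 253247 to 253518. Those summits were on the far side of the small gene MIN4, in the space between MIN4 and YAP1, the gene of the oxidative stress regulator Yap1. They were 106 and 151 bp from the start of MIN4 and 470 and 425 bp from that of YAP1, so the assignment to ERG6 rests on a window that runs past MIN4.

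ERG4 (YGL012W), the reductase of the last step, shares its upstream space of 556 bp with the divergent gene PDR1 itself. The replicate 1 peak on chromosome VII from 472646 to 472801 was 1.96-fold enriched, the lowest value of the list (rank 792). The replicate 2 peak from 472515 to 472694 was 2.52-fold enriched (rank 483 of 485). Both summits were nearer to ERG4, at 194 and 227 bp, than to PDR1. A second replicate 1 summit in the PDR1 window, 2.60-fold enriched, lay inside the coding region of ERG4, and it was the one Pdr1 summit found inside the coding region of any of the 36 genes.

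ERG1, NCP1 and ERG27 were listed in replicate 1 alone. ERG1 (YGR175C), the squalene epoxidase gene, had a peak on chromosome VII from 848689 to 848818 that was 4.15-fold enriched (rank 528), 346 bp before the start. NCP1 (YHR042W), whose product passes electrons to the P450 enzymes Erg11 and Erg5, had a 90 bp peak on chromosome VIII from 190340 to 190429, 4.55-fold enriched (rank 454), 164 bp before the start. NCP1 shares that space with SRB2, a Mediator subunit gene, whose start was farther from the summit.

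ERG27 (YLR100W), the sterol ketoreductase gene, had a summit that lay closer to the starts of other genes. The peak on chromosome XII from 341014 to 341251 was 10.8-fold enriched (rank 42 of 792). Its summit was 653 bp before ERG27 but 168 bp before MIM2 and 229 bp before ICT1, a divergent acyltransferase gene reported as a drug resistance target. It lay between ICT1 and MIM2, and MIM2 stands between it and ERG27. ERG27 lost the peak when the window was ended at the neighbouring gene or when a summit was given to the nearest start.

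The late genes without a Pdr1 summit were ERG9 (squalene synthase), ERG7 (lanosterol synthase), ERG24 (a sterol reductase), ERG26 (a sterol dehydrogenase), ERG29, ERG2 (sterol isomerase) and ERG3 (a sterol desaturase). The genes without a summit therefore lay at the first steps, in the demethylation complex and in the final steps alike.

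**Figure D2:**
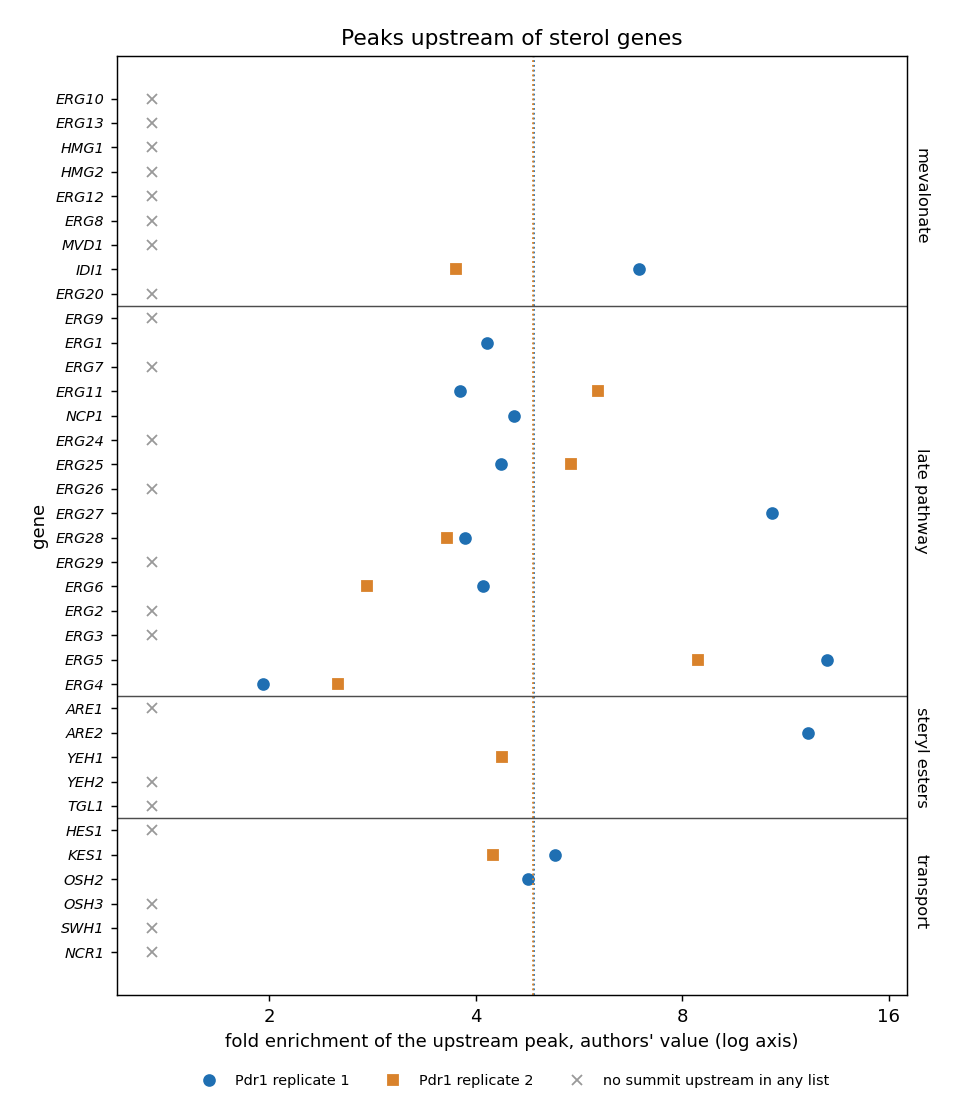
Fold enrichment of each peak upstream of the 36 sterol genes, as the authors' peak caller gave it, on a log axis, with genes ordered by role. Circles are Pdr1 replicate 1, squares are replicate 2, crosses are genes with no summit upstream in any list, and dotted lines are the medians of all peaks in each list (4.86 and 4.85). ERG5, ARE2 and ERG27 lie above 10-fold in replicate 1, and of these ERG5 has a replicate 2 peak.

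Of the genes that make and break steryl esters, ARE2 (YNR019W) had a strong peak in replicate 1. ARE2 encodes the main sterol acyltransferase of aerobic cells. Its peak on chromosome XIV from 665031 to 665281 was 12.2-fold enriched (rank 31 of 792, −log10 q 61.8), with the summit 160 bp before the start and in the window of no other gene. Replicate 2 listed no peak there. YEH1 (YLL012W), a steryl ester hydrolase gene, had the reverse pattern: no replicate 1 summit in the window and a replicate 2 peak on chromosome XII from 125034 to 125307, 4.37-fold enriched (rank 294 of 485). The YEH1 summit lay 420 bp before its start and 400 bp before the divergent start of PUF3, the gene of an RNA-binding protein of mitochondrial messages. ARE1, the second acyltransferase gene, and the hydrolase genes YEH2 and TGL1 had no summit, so no gene of this role was found in both replicates.

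Among the transport genes, KES1 (YPL145C) was found in both lists. KES1 encodes an oxysterol-binding protein homologue that exchanges sterol for a phosphoinositide between membranes. Its peaks on chromosome XVI from 280067 to 280368 and from 280187 to 280324 were 5.22-fold (rank 346) and 4.24-fold (rank 311) enriched. The summits were 527 and 568 bp before KES1 and 254 and 213 bp before the divergent gene POC4, a proteasome assembly chaperone gene. OSH2 (YDL019C), of the same protein family, had a 90 bp replicate 1 peak on chromosome IV from 421808 to 421897, 4.76-fold enriched (rank 413), 338 bp before its start. HES1, OSH3, SWH1 and NCR1, the last being the yeast relative of the human Niemann-Pick type C protein, had no summit upstream.

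The window edge of 1000 bp fell in a gap. The farthest summit inside it was that of ERG25 at 764 bp, and the nearest outside were a weaker ERG25 summit at 1171 bp (2.95-fold), ARE2 summits at 1282 bp in replicate 1 (3.69-fold) and 1296 bp in replicate 2 (7.16-fold), and an ERG13 summit at 1303 bp in replicate 1 (10.4-fold).

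**Figure D3:**
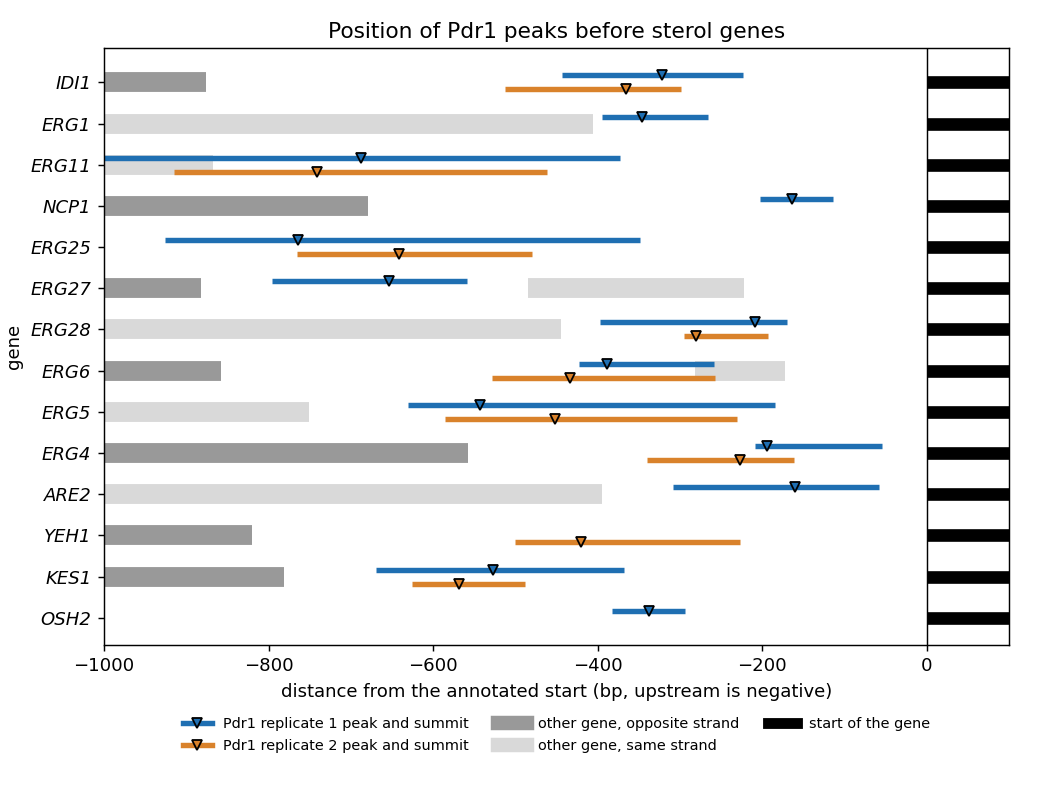
Position of the peaks (lines) and summits (triangles) before the annotated start of the 14 sterol genes with a Pdr1 summit, in bp, with other genes in the window in grey (darker where on the opposite strand) and the first 100 bp of each sterol gene in black. The summits lie 160 to 764 bp before the start, and those of ERG27 and ERG6 lie beyond another gene.

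As a group the sterol peaks were of ordinary height. The 13 replicate 1 peaks had a median fold enrichment of 4.55 (range 1.96 to 13.0), where the whole list had a median of 4.86, and 5 of the 13 were above that median. The 9 replicate 2 peaks had a median of 4.24 (range 2.52 to 8.44), where the list had 4.85, and 3 of the 9 were above it. Peaks in the top 10% of a list were those of ERG5, ARE2 and ERG27 in replicate 1 and that of ERG5 in replicate 2.

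**Figure D4:**
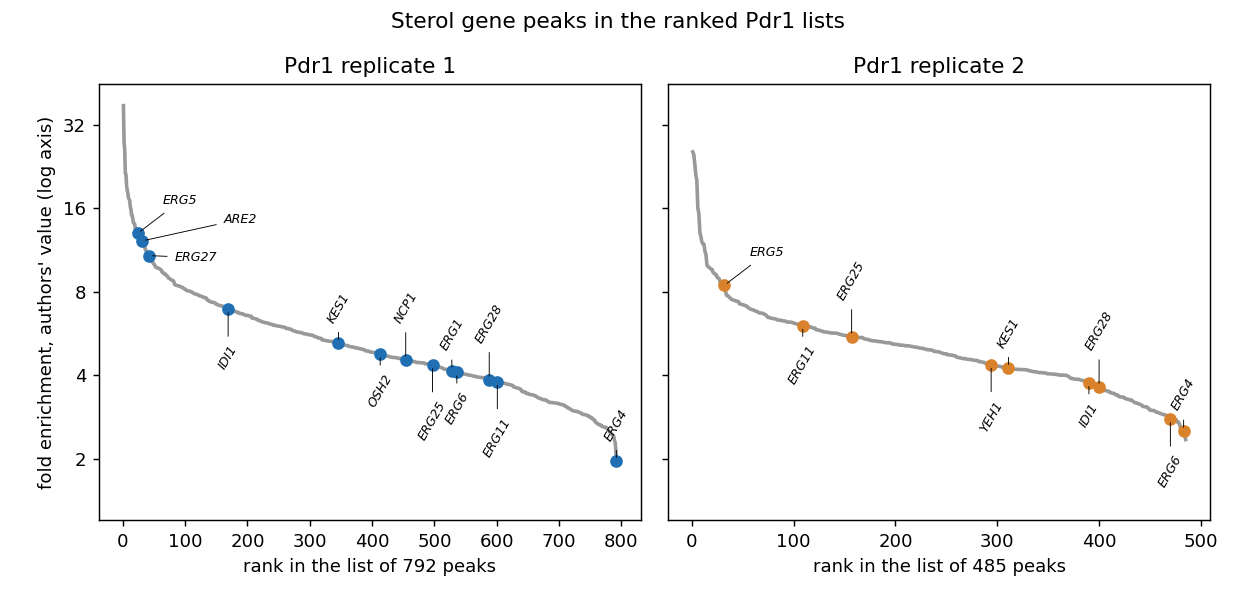
Fold enrichment, on a log axis, against rank for all peaks of Pdr1 replicate 1 (792 peaks) and replicate 2 (485 peaks), as a grey line, with the sterol gene peaks marked and named. In replicate 1 ERG5, ARE2 and ERG27 lie at ranks 24, 31 and 42 and most others past the middle of the list. ERG4 is at the low end of both lists by fold enrichment, at ranks 792 and 483.

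Where both replicates listed a peak, its position and its rank were compared. The peaks of all 8 genes overlapped, and their summits were 33 to 123 bp apart, with a median of 49.5 bp, against a median of 28 bp over the 537 genes found in both lists. The summits lay within 100 bp of each other for 7 of the 8, the exception being ERG25, and for 453 of the 537. By fold enrichment, 5 of the 8 ranked higher in replicate 1 (IDI1, ERG28, ERG6, ERG5 and KES1) and 3 in replicate 2 (ERG11, ERG25 and ERG4). ERG5 stood in the top 3.03% and 6.60% of the lists and ERG4 at their low end, at 100% and 99.6%. IDI1 stood in the top 21.3% of replicate 1 and the top 80.4% of replicate 2, and ERG11 in the top 75.9% and 22.5%. Ranked by −log10 q the replicates were closer for both genes, at 49.6% and 73.4% for IDI1 and 30.4% and 12.4% for ERG11. They were also closer for ERG25 and ERG6. They were farther apart for ERG4 (97.5% and 62.9%), KES1 (27.8% and 84.9%) and ERG28 (64.4% and 96.3%), and slightly so for ERG5 (3.54% and 7.84%).

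Of the 13 replicate 1 sterol peaks, 5 overlapped no replicate 2 peak. These were the peaks of the genes listed in replicate 1 alone, which were picked for having no replicate 2 summit in the window. They were 90 to 251 bp wide, while the replicate 1 peaks of the 8 shared genes were 156 to 701 bp wide. In the replicate 1 list as a whole, 379 of 792 peaks (47.9%) overlapped no replicate 2 peak, and among the 79 peaks in its top 10% there were 18 such peaks (22.8%), which include those of ARE2 and ERG27. Because the lists hold no reads, these absences cannot be told apart from peaks below the authors' threshold.

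Many of these summits lie where more than 1 gene could claim them. In replicate 1, 7 of the 13 summits were in the window of the sterol gene alone, and 62.8% of all 704 peaks with an upstream summit belonged to 1 gene alone. In replicate 2 the count was 4 of 9, and the share 57.4% of 434. The sterol gene had the nearest start for 10 of 13 and 6 of 9 summits. When each summit was given to the nearest start, 6 sterol genes remained in both lists, IDI1, ERG11, ERG25, ERG28, ERG5 and ERG4 (16.7%, against 5.76% of all genes).

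Genes with a summit had longer spaces before them, as a description of the whole table. Over all genes, the median distance from the start to the next gene was 727 bp for genes with a Pdr1 summit in either list and 398.5 bp for those without. For the sterol genes the medians were 714 bp for the 14 with a summit and 498.5 bp for the 22 without. Of the 22 sterol genes with a space of at least 448 bp, the median of all genes, 9 had a summit (40.9%, against 27.2% of all genes with such a space), and of the 14 with a shorter space 5 had one (35.7%, against 6.39%). Those 5 were ERG1, ERG27, ERG28, ERG6 and ARE2, of which ERG27 and ERG6 have their summit beyond the neighbouring gene. A divergent neighbour stood before 15 sterol genes, of which 5 had a summit in either list, and a tandem neighbour before 21, of which 9 had one. Over all genes the shares were 19.4% with a divergent and 14.0% with a tandem neighbour.

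Other sterol-related genes were taken from a second list of 39, covering regulators, uptake and transport, turnover of HMG-CoA reductase, electron and heme partners, sterol acetylation and isoprenoid branches. Of these 39, 10 had a Pdr1 summit in replicate 1 (25.6%, 95% Wilson interval 14.6 to 41.1%, against 15.5% of all genes) and 6 in both replicates (15.4%, 7.25 to 29.7%, against 8.95%). None had a Pdr3 summit. Of 7 regulators 5 had a summit in replicate 1 (71.4%, 35.9 to 91.8%, against 15.5%). In both replicates 3 had one, MOT3, ROX1 and SUT2 (42.9%, 15.8 to 75.0%, against 8.95%). With windows ended at the neighbouring gene, SUT2 alone of these 3 remained in both lists. UPC2 and ECM22, the zinc-cluster activators of the ergosterol genes, had none in the window. ECM22 had a replicate 1 summit 1328 bp before its start, outside the window but within its upstream space of 1748 bp.

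ROX1, the gene of a hypoxic repressor, had fold enrichments of 7.85 and 6.64, both with the summit inside the small gene YPR064W. MOT3, a repressor gene, had 5.72 and 6.29, with the replicate 2 summit inside NAT4, and SUT2, a sterol uptake regulator gene, had 4.49 and 4.21. HAP1, the gene of the heme-responsive activator, had 7.59-fold in replicate 1, with its summit 21 bp before YLR255C, and SUT1 had 6.39-fold in replicate 1.

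Of 16 uptake and transport genes, 4 had a summit in replicate 1 (25.0%, 95% Wilson interval 10.2 to 49.5%, against 15.5% of all genes) and 2 in both (12.5%, 3.50 to 36.0%, against 8.95%), shares near those of all genes. PDR11, the gene of a sterol-importing ABC transporter, had summits 397 bp (3.49-fold) and 973 bp (6.18-fold) before its start in replicate 1 and 428 bp (5.68-fold) in replicate 2, all also upstream of TIR3. AUS1, the gene of its partner in sterol import, had no summit in the window. PRY3, of a family that exports sterols, had 6.92-fold and 6.87-fold, with summits 631 and 667 bp before its start. Those summits lay beyond the neighbouring gene YJL077W-B, which is 65 bp from PRY3. They were also in the windows of NET1 and YJL077W-A, and nearest to YJL077W-A (187 and 151 bp). LAM4, a sterol transfer protein gene, had 9.76-fold (rank 56) and PRY2 3.99-fold, both in replicate 1 alone. DAP1, whose product binds heme and supports Erg11, had 4.84-fold and 3.84-fold, in a space shared with OYE3. The 7 genes of HMG-CoA reductase turnover, the 2 of sterol acetylation and the 4 of isoprenoid branches had no Pdr1 summit.

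**Figure D5:**
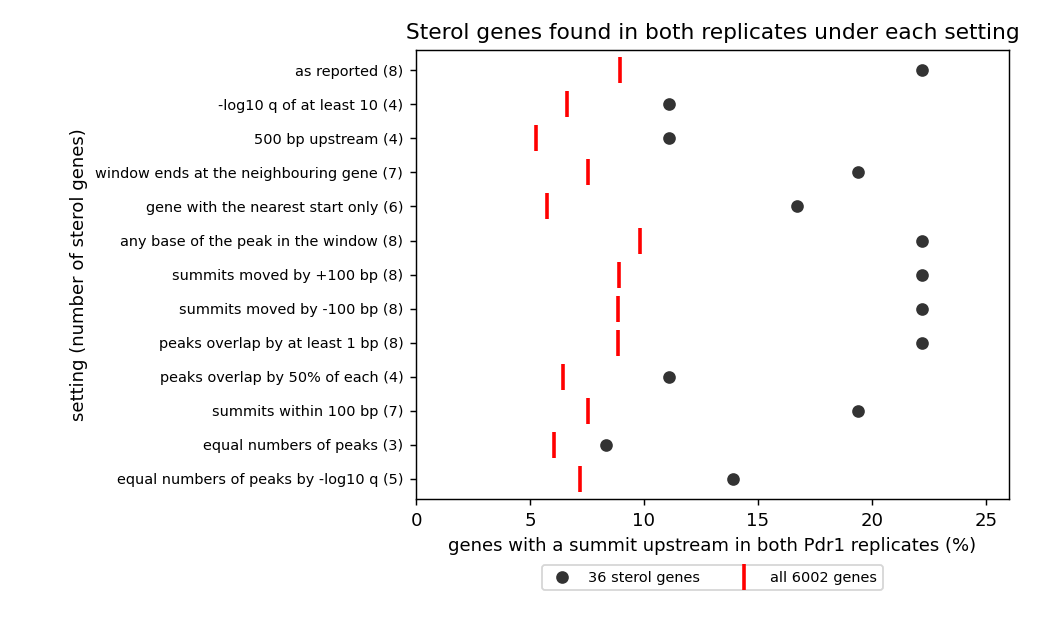
Share of genes, in percent, with a summit upstream in both Pdr1 replicates under each setting, for the 36 sterol genes (circles, with their number in brackets) and for all 6002 genes (red marks). The sterol genes range from 8.33 to 22.2% and lie to the right of the red mark in each setting, nearest to it with equal numbers of peaks by fold enrichment, at 8.33 and 6.06%.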

How the data were processed

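The 3 c-Myc libraries each have a narrowPeak list without a header. Per the submitters' processing notes, which give no role or order, Trimmomatic 0.33, Bowtie2, Picard, deepTools and MACS2 2.1.1 and the builds R64 and sacCer3 were used, and the sources used here do not give the settings or how IgG and spike-in reads were used. The deposited signal value of each peak was read as a fold enrichment, and its reference is not stated. The deposited −log10 q filtered peaks, the deposited −log10 p-value served no step, and the deposited score repeats 10 times the −log10 q rounded down.

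Starts, ends and summits were counted from 1. Genes came from a RefSeq table of R64, with the strand read from the systematic name. Of the second list, 38 genes matched by symbol and 1 by synonym. A summit counted for every gene whose 1000 bp upstream held it. The genes named were every sterol gene, the genes that share its summits, every gene of the second list with a summit, and PDR5 and PDR16 for scale. Sterol genes, roles and lists were chosen with earlier results of these data known. Shares are given with Wilson intervals at 95%, for counting error alone. The assignment was tested on simulated data. Python 3.11.15, pandas 2.3.3 and SciPy 1.17.1 were used. Motifs and sequences were not analysed here.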

Additional observations from a re-analysis of the deposited data

How the results depend on the processing

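Of 58 recomputed counts, 42 stayed within 1.5 times the reported count. These include the Pdr3 counts, which no setting could change, as the closest Pdr3 summit was 41204 bp before a start. The settings for the late pathway count, and the equal numbers of peaks by −log10 q, were chosen after seeing the data. A −log10 q of at least 10 left 8 sterol genes in replicate 1 (22.2%, against 12.3% of all genes). It left 4 in both replicates (11.1%, against 6.63%), 3 of them late (18.8% of the late genes). With 500 bp upstream the same counts were 8, 4 and 3 (22.2%, 11.1% and 18.8%, against 10.8%, 5.28% and 5.28% of all genes). In the late pathway the genes differed: ERG11, ERG25 and ERG5 under the −log10 q limit, ERG28, ERG6 and ERG4 with 500 bp. An overlap of 50% of each peak left 4 in both (11.1%, against 6.43% of all genes), 3 of them late (18.8% of the late genes). Equal numbers of peaks left 3 by fold enrichment (1 late, ERG5, or 6.25% against 6.06% of all genes) and 5 by −log10 q (3 late). The second list fell from 6 genes in both to 3 with 500 bp (7.69%, against 5.28% of all genes). With windows ended at the neighbouring gene it also fell to 3, which at 7.69% is about the 7.56% of all genes. Without replicate 1 there were 9 sterol genes, 6 late genes and 6 of the second list (25.0%, 37.5% and 15.4%, against 10.2% of all genes). Without replicate 2 there were 13, 9 and 10 (36.1%, 56.2% and 25.6%, against 15.5% of all genes). The Pdr3 count stayed at 0 in every setting run. Moving summits by 100 bp either way changed no count of the 36 genes. Their summits lay 160 to 764 bp before the start and the next at 1171 bp, so such a move could cross no window edge. Per gene, the number of lists with a summit was unchanged in 234 of 252 recomputations and fell in 18. The unchanged ones include those of the 22 sterol genes with no summit. For these genes the −log10 q filter, the shorter or ended window and the nearest start could change nothing. Ranked by −log10 q, 8 of 22 peaks moved by over 1.5 times, among them IDI1 in replicate 1 (169 to 393) and ERG11 in both (601 to 241, 109 to 60). The smaller counts follow from fewer peaks, shorter windows, stricter overlap or giving each summit to the nearest start alone.

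No paired analysis was possible because the results are counts from peak lists with no test, and no values of the IgG libraries numbered like the Pdr1 replicates are in the files used here. The planned motif counts were not run. Without reads or control lists, absence from a list is not absence of binding.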
